A study of Homo sapiens with 9 samples.

Results

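The genes of small nuclear, small nucleolar, small Cajal body-specific and microRNAs were compared between parental and sorafenib-resistant Huh7 cells. Huh7 is a human hepatocellular carcinoma cell line. Members were all probe sets of the deposited table with 1 annotated symbol that begins with SNORD, SNORA, SCARNA, RNU, RNVU, RN7SK or MIR plus a digit and does not contain HG. They numbered 411 probe sets of 11013, or 401 genes of the 9784 tested. By class these were 68 box C/D snoRNA genes, 49 box H/ACA snoRNA genes, 16 scaRNA genes, 104 snRNA genes, 5 7SK genes and 159 microRNA genes. Another 191 probe sets carried a small RNA symbol together with other symbols and were not analysed here.

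The 9 arrays were 3 each of parental, sensitive cells (Huh7-S), a resistant pool (Huh7-R) and a clone grown from 1 colony of that pool (Huh7-R-A7). Both resistant lines came from parental cells that were given 10 µM sorafenib, a multikinase inhibitor, for 4 h in each of 6 weeks and were then kept in rising doses up to 6 µM. The drug was withdrawn 1 week before harvest, so every array shows cells without sorafenib, and the clone is a single line. Arrays were grouped by their titles, although the description fields of replicates 2 and 3 of the clone name different clones. The study's methods call the 3 arrays of a cell type biological replicates but do not say how they were kept apart, and the p-values measure the spread between them. In the pool, a change in which cells are present and a change in RNA per cell cannot be told apart.

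Box C/D snoRNAs guide 2′-O-methylation and box H/ACA snoRNAs guide pseudouridylation, mostly of ribosomal RNA, while scaRNAs guide the same changes in spliceosomal snRNAs in Cajal bodies. In human cells most of them are cut from introns of host genes, many of which encode ribosomal or nucleolar proteins. snRNAs are the RNA core of the spliceosome, 7SK RNA holds the elongation factor P-TEFb inactive, and microRNAs, cut from hairpins in longer transcripts, repress mRNAs through their seed. The arrays were hybridised with labelled total RNA after a column purification. A probe set on a microRNA or snoRNA gene can therefore read its precursor and any longer transcript across it as well as the mature RNA. These were not separated, and the share of each is not known. The signal of a microRNA gene is thus not a level of its mature microRNA. All values are log2 signals, and a signal of 6 is the noise limit named in the study's methods. Signals of different genes are not compared.

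The microRNA genes that the results turn on are shown first. A mature sequence was found in RefSeq (GRCh38.p14) for 143 of the 159 microRNA genes. The lines give the mature RNAs 5′ to 3′, with the seed, bases 2 to 8, in capitals. The first 2 share a seed and so do the next 3, and in each of these groups 1 gene passed a test against Huh7-S (MIR21, MIR181B1) while MIR590, MIR181D and MIR4262 did not. The other sequences belong to genes with some of the larger differences. Of the 25 microRNA genes that passed against Huh7-S or between the resistant lines, 22 had a mature sequence, and no seed was shared by several of these 22. MIR320A, described below with MIR320E of the same family, had none, so these 2 were not compared.
hsa-miR-21-5p: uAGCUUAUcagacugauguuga
hsa-miR-590-5p: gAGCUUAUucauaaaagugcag
hsa-miR-181b-5p: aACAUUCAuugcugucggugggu
hsa-miR-181d-5p: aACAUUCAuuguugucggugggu
hsa-miR-4262: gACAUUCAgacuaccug
hsa-miR-29a-3p: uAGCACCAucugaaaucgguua
hsa-miR-573: cUGAAGUGauguguaacugaucag
hsa-miR-4521: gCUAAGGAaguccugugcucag
hsa-miR-3942-5p: aAGCAAUAcuguuaccugaaau
hsa-miR-3198: gUGGAGUCcuggggaauggaga

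Before the results, the arrays and the symbols were checked. Median signals of the arrays lay between 8.22 and 8.38. Of 9 liver markers, 8 were measured, and AFP, ALB, APOB, TTR, FGA and FGB lay between 11.82 and 18.16 on all arrays, whereas APOA1 (4.29 to 6.39) and SERPINA1 (4.99 to 7.62) lay around the noise limit. Small RNA genes varied more between replicates than other genes, with a median SD within groups of 0.27 against 0.12. Huh7-S replicate 1 stood apart in the copy-rich families described below. Each probe set's chromosome matched that of its symbol in RefSeq for all 133 snoRNA and scaRNA probe sets, but for 12 of 37 probe sets of the MIR548 family and for none of the 3 U6 copies that RefSeq lists. Those 2 families are described only as families. In 60 of the 401 genes at least 1 group had a mean below the noise limit. For these a fold is given as "at least", with arrays below 6 set to 6. The study's methods filter out genes below 6 on 85% of arrays. A gene below 6 on every array of a group, such as MIR29A, MIR3942 or SCARNA8, is kept only through its other arrays. Its adjusted p takes no account of that.

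In Huh7-R-A7 vs. Huh7-S, 31 small RNA genes were higher and 32 lower at an adjusted p below 0.05 (limma, two-sided, Benjamini-Hochberg over all genes). That is 15.7% of the 401, against 42.7% of all genes tested. In Huh7-R vs. Huh7-S, 31 were higher and 26 lower, or 14.2% against 45.1% of all genes. With each array centred on its median instead, the counts were 45 higher and 27 lower in the clone and 45 and 22 in the pool. The median difference of the small RNA genes was −0.04 and 0.03, and that of all genes −0.04 and −0.03. Against the same Huh7-S arrays, 20 genes were higher and 17 lower in both resistant lines, 26 passed only in the clone and 20 only in the pool, and no gene passed in opposite directions. Passing in 1 line alone does not show a difference between the lines. The groups did not overlap for 84 small RNA genes in the clone (20.9%, against 52.4% of all genes) and for 82 in the pool (20.4%, against 53.0%). Without Huh7-S replicate 1 the lower counts rose to 71 in the clone and 53 in the pool, mostly through snRNA genes as described below. Calls in either direction were then 24.4% and 20.2% of the small RNA genes, against 45.6% and 47.1% of all genes. In the pool the lower count fell to 15 without Huh7-S replicate 2 and to 16 without Huh7-R replicate 3.

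The classes did not move one way. Of all genes, 18.0% were higher and 24.6% lower in the clone, and 19.0% and 26.2% in the pool. In Huh7-R-A7, 6 box C/D snoRNA genes were higher and 6 lower, and of the box H/ACA genes 7 were higher and 1 lower. The scaRNA genes had 2 higher and 7 lower, which made 56.2% of the class. For snRNA genes 3 were higher and 10 lower, for microRNA genes 12 and 8, and 1 7SK gene was higher. By symbol, all 3 higher and 7 of the 10 lower snRNA genes were pseudogenes, as was the 7SK gene. In Huh7-R the counts were 8 and 7 for box C/D, 7 and 4 for box H/ACA, 1 and 4 for scaRNA, 3 and 5 for snRNA, 11 and 6 for microRNA genes, and 1 and 0 for 7SK. Pseudogenes made 3 and 4 of these snRNA counts and the 1 of 7SK. The scaRNA median was −0.25 in the clone and −0.21 in the pool, while the box H/ACA median was 0.09 and 0.16.

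**Figure D1:**
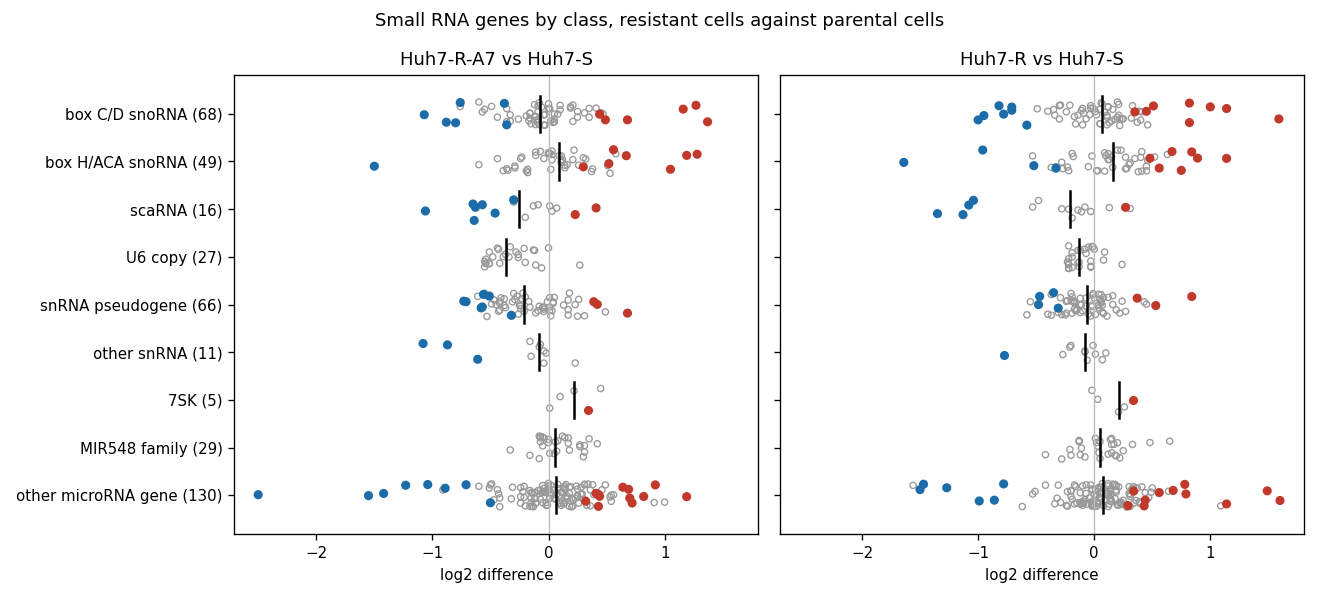
Log2 difference (x axis) of each small RNA gene by class (y axis, number of genes in brackets) in Huh7-R-A7 and in Huh7-R against Huh7-S, n = 3 arrays a group. Filled points passed an adjusted p below 0.05 (red higher, blue lower), open points did not, and black bars are class medians. Filled points lie on both sides of 0 in most classes, and none lies among the U6 copies or the MIR548 family.

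The snoRNA genes with the largest rises lay on chromosomes 20, 7 and 17. On chromosome 20 the box H/ACA genes SNORA71A (chr20:38427306-38427443) and SNORA71C (chr20:38429667-38429804) lie within SNHG17, a long noncoding snoRNA host gene, as do SNORA71B and SNORA71D. Their RNAs are near copies of each other, so a probe set of 1 may read another. SNORA71A measured 13.49, 13.57 and 13.18 in Huh7-S, 14.46, 14.23 and 14.23 in Huh7-R, and 14.69, 14.65 and 14.73 in Huh7-R-A7. All 6 resistant arrays lay above all parental ones, by 1.28 ± 0.11 (SE, adjusted p = 8.3e-05, 2.42-fold) in the clone and 0.89 ± 0.11 (adjusted p = 0.00051, 1.86-fold) in the pool. SNORA71C measured 13.22, 13.13 and 12.18 in Huh7-S, 14.23, 13.97 and 13.75 in Huh7-R, and 14.04, 14.18 and 13.87 in Huh7-R-A7. Its groups did not overlap either, with differences of 1.19 ± 0.27 (adjusted p = 0.0088) and 1.14 ± 0.27 (adjusted p = 0.01). SNORA71D was higher in the clone by 0.67 ± 0.16 (adjusted p = 0.011), and its 0.40 ± 0.16 in the pool had an adjusted p of 0.073. SNORA71B differed by 0.53 ± 0.22 and 0.41 ± 0.22 (adjusted p = 0.093 and 0.18). SNHG17 itself differed by 0.11 ± 0.1 and −0.01 ± 0.1 (adjusted p = 0.39 and 0.94), and 5 of its 9 arrays were listed at 7.51.

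A second locus on chromosome 20, ZFAS1, holds 3 box C/D genes, and ZFAS1 itself was not analysed here. SNORD12B (chr20:49280313-49280415) measured 10.16, 10.08 and 10.2 in Huh7-S, 10.97, 11.26 and 11.21 in Huh7-R, and 11.74, 11.03 and 11.15 in Huh7-R-A7. Parental arrays were all lower, and the differences were 1.16 ± 0.18 (adjusted p = 0.0013) in the clone and 1.00 ± 0.18 (adjusted p = 0.0026) in the pool. SNORD12 (chr20:49280683-49280772) was higher by 0.68 ± 0.16 (adjusted p = 0.0097) and 0.51 ± 0.16 (adjusted p = 0.031), the latter lost without any 1 of 5 arrays. SNORD12C (chr20:49278945-49279023) differed by 0.45 ± 0.17 and 0.22 ± 0.17 (adjusted p = 0.064 and 0.31). So the 3 genes of 1 host had positive differences of unequal size, and 2 of them passed.

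In the clone the largest rises of the box C/D class were those of SNORD93 and SNORD104. SNORD93 (chr7:22856613-22856686, within SNHG26) guides methylation of 18S ribosomal RNA. It measured 9.76, 9.69 and 9.41 in Huh7-S, 11.19, 11.29 and 11.15 in Huh7-R, and 10.97, 11.53 and 10.46 in Huh7-R-A7. Every resistant array lay above every parental one, by 1.37 ± 0.24 (adjusted p = 0.0026, 2.58-fold) in the clone and 1.59 ± 0.24 (adjusted p = 0.0012, 3.02-fold) in the pool. SNORD104 (chr17:64146078-64146157, within SNHG25) guides methylation of 28S ribosomal RNA. Its signals were 14.04, 13.38 and 12.86 in Huh7-S, 14.4, 14.89 and 14.4 in Huh7-R, and 14.66, 14.89 and 14.52 in Huh7-R-A7. The groups did not overlap, although the parental arrays spanned over 1 log2 unit, and the differences were 1.27 ± 0.29 (adjusted p = 0.0087) and 1.14 ± 0.29 (adjusted p = 0.014). Without Huh7-R replicate 2 the pool difference no longer passed. SNHG25 and SNHG26 were not analysed here.

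SNORA22 (chr7:65755526-65755659, box H/ACA) measured 14.36, 14.23 and 13.69 in Huh7-S, 14.6, 14.54 and 14.53 in Huh7-R, and 14.88, 15.25 and 15.31 in Huh7-R-A7. The 3 groups did not overlap, and the clone was higher than the parental cells by 1.05 ± 0.18 (adjusted p = 0.0024). The pool differed from them by 0.46 ± 0.18 (adjusted p = 0.072), and the clone from the pool by 0.59 ± 0.18 (adjusted p = 0.095). SNORA49, within the chromatin remodeller gene EP400, was higher by 0.56 ± 0.12 in both lines (adjusted p = 0.0081 in the clone and 0.0077 in the pool), whereas EP400 differed by −0.23 ± 0.08 (adjusted p = 0.041) and −0.04 ± 0.08 (adjusted p = 0.7).

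The largest fall among snoRNA genes was that of SNORA75, which lies within NCL. NCL encodes nucleolin, an abundant nucleolar protein that takes part in ribosome production, and 3 measured snoRNA genes lie within it. SNORA75 (chr2:231455800-231455936, box H/ACA) measured 10.54, 11.3 and 11.16 in Huh7-S, 9.25, 9.58 and 9.25 in Huh7-R, and 9.58, 9.5 and 9.43 in Huh7-R-A7. All parental arrays lay above all resistant ones, and SNORA75 was lower by −1.50 ± 0.19 (adjusted p = 0.00054, 2.82-fold) in the clone and −1.64 ± 0.19 (adjusted p = 0.00035, 3.11-fold) in the pool. SNORD82 (chr2:231460368-231460442, box C/D) measured 16.58, 16.8 and 16.07 in Huh7-S, 15.6, 15.86 and 15.52 in Huh7-R, and 15.91, 15.89 and 15.24 in Huh7-R-A7. It was lower without overlap by −0.80 ± 0.24 (adjusted p = 0.027) and −0.82 ± 0.24 (adjusted p = 0.024). SNORD20 (chr2:231456444-231456523), between them, differed by −0.04 ± 0.12 and −0.10 ± 0.12 (adjusted p = 0.8 and 0.53). NCL itself was lower by −0.62 ± 0.11 (adjusted p = 0.0025) and −0.92 ± 0.11 (adjusted p = 0.00036). The SNORD82 call was lost without Huh7-S replicate 1 or Huh7-S replicate 2 in both lines, without Huh7-R-A7 replicate 3 in the clone, and without Huh7-R replicate 1 or 3 in the pool.

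NOP58 encodes a core protein of every box C/D snoRNP and itself holds 3 of the box C/D genes. SNORD11B (chr2:202291317-202291428) was lower by −0.76 ± 0.19 (adjusted p = 0.012) in the clone and −0.58 ± 0.19 (adjusted p = 0.035) in the pool. SNORD11 (chr2:202293051-202293134) differed by −0.55 ± 0.2 (adjusted p = 0.065) and −0.71 ± 0.2 (adjusted p = 0.024), and SNORD70 (chr2:202276431-202276518) by −0.76 ± 0.3 (adjusted p = 0.074) and −1.0 ± 0.3 (adjusted p = 0.026). NOP58 itself was lower by −0.58 ± 0.19 (adjusted p = 0.044) and −0.93 ± 0.19 (adjusted p = 0.006). The pool calls of all 3 snoRNA genes each depended on several arrays, since leaving out 1 of 4 arrays (SNORD11 and SNORD70) or 1 of 6 (SNORD11B) ended them. SNORD51 (chr2:206161881-206161950), within the translation elongation factor gene EEF1B2, which was not analysed here, measured 10.27, 10.68 and 10.12 in Huh7-S, 9.22, 9.48 and 9.52 in Huh7-R, and 9.66, 9.69 and 9.07 in Huh7-R-A7. It was lower in both lines without overlap, by −0.88 ± 0.21 (adjusted p = 0.01) and −0.95 ± 0.21 (adjusted p = 0.0069).

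**Figure D2:**
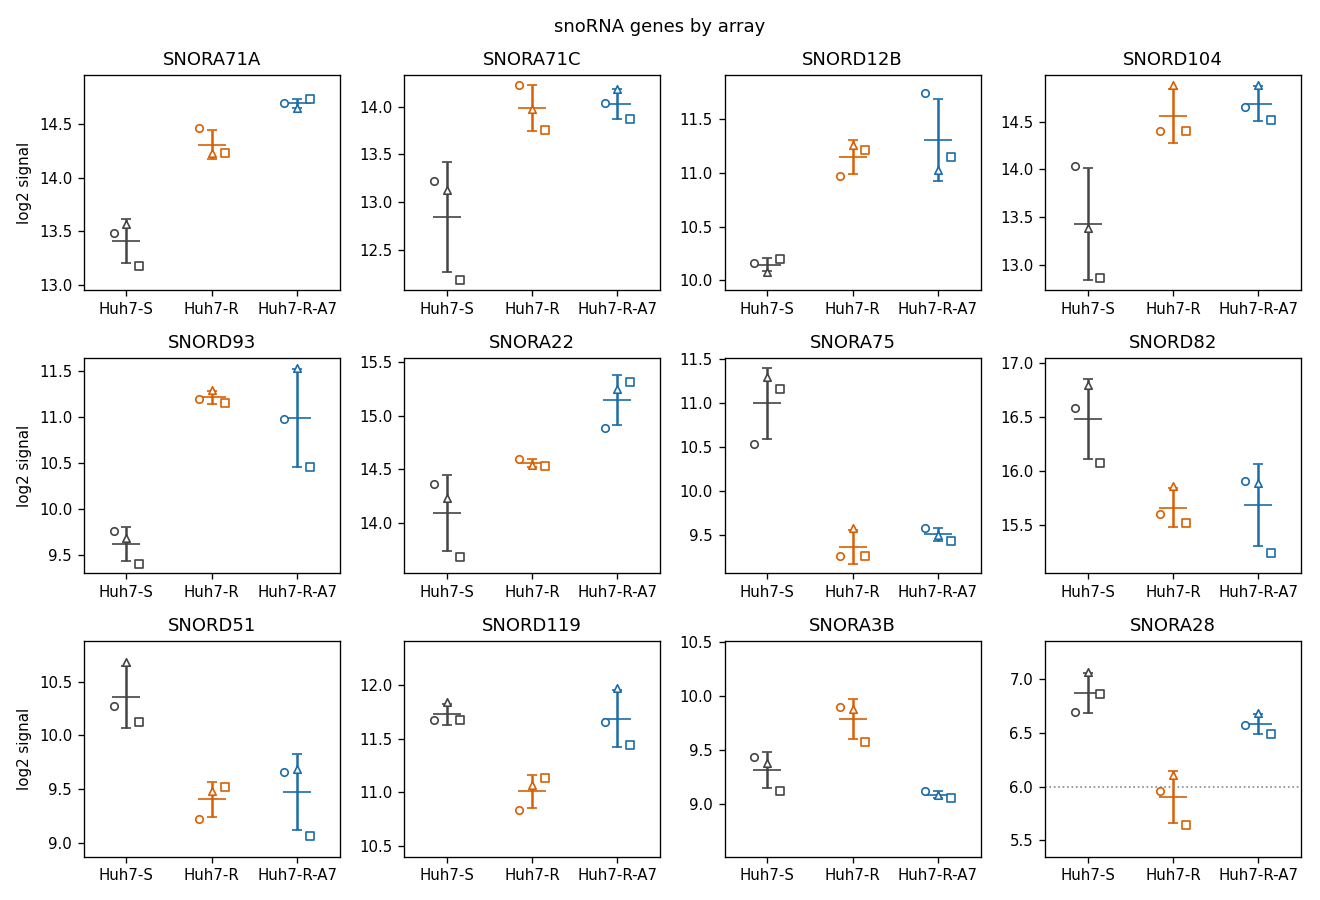
Log2 signal (y axis, a scale for each gene spanning at least 2 log2 units) of 12 snoRNA genes in parental (Huh7-S), pool (Huh7-R) and clone (Huh7-R-A7) cells. Open symbols are the 3 arrays a group (circle, triangle and square for replicates 1, 2 and 3) with the mean and SD as bars, and the dotted line in the panel of SNORA28 is the noise limit at 6. SNORA71A, SNORD12B and SNORD93 lie higher and SNORA75 and SNORD51 lower on all resistant arrays, while SNORD119, SNORA3B and SNORA28 differ between pool and clone.

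Of the 16 scaRNA genes 9 passed in the clone (56.2%, against 42.7% of all genes) and 5 in the pool (31.2%, against 45.1%). SCARNA5 (chr2:233275726-233276003) and SCARNA6 (chr2:233288676-233288941) lie within ATG16L1, an autophagy gene. SCARNA5 measured 8.93, 9.02 and 8.72 in Huh7-S, 7.66, 7.45 and 7.52 in Huh7-R, and 8.25, 8.28 and 8.2 in Huh7-R-A7. The 3 groups were fully apart, with the clone between the others. The clone was lower than the parental cells by −0.65 ± 0.09 (adjusted p = 0.00079), the pool by −1.35 ± 0.09 (adjusted p = 2.3e-05), and the clone was higher than the pool by 0.70 ± 0.09 (adjusted p = 0.0038). SCARNA6 was lower by −0.57 ± 0.16 (adjusted p = 0.024) in the clone and −1.08 ± 0.16 (adjusted p = 0.0013) in the pool, the former lost without Huh7-R-A7 replicate 2 or 3. ATG16L1 had the same order, at −0.28 ± 0.08 (adjusted p = 0.029), −0.64 ± 0.08 (adjusted p = 0.00067) and, clone against pool, 0.35 ± 0.08 (adjusted p = 0.043).

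SCARNA8 (chr9:19063656-19063786) lies within HAUS6, a subunit of the augmin complex of the mitotic spindle. It measured 6.29, 7.14 and 6.31 in Huh7-S, whereas all resistant arrays lay below the noise limit, at 5.34 to 5.53 in Huh7-R and 5.38 to 5.6 in Huh7-R-A7. It was at least 1.49-fold lower in the clone (adjusted p = 0.0051) and in the pool (adjusted p = 0.0037). HAUS6 was lower by −1.75 ± 0.16 (adjusted p = 0.00011) and −1.99 ± 0.16 (adjusted p = 6.6e-05). SCARNA9L (chrX:20136066-20136413), within the translation initiation factor gene EIF1AX, was lower by −0.64 ± 0.19 (adjusted p = 0.029) and −1.04 ± 0.19 (adjusted p = 0.0033). In the clone SCARNA1, SCARNA10 and SCARNA23 were also lower, by −0.63, −0.46 and −0.30 (adjusted p = 0.03, 0.044 and 0.021), and SCARNA18 (0.23, adjusted p = 0.028) and SCARNA21 (0.41, adjusted p = 0.049) were higher. SCARNA18 was higher in the pool as well (0.27, adjusted p = 0.016). SCARNA2, which is transcribed from a promoter of its own, differed by −0.13 ± 0.1 and −0.14 ± 0.1 (adjusted p = 0.36 and 0.29). Leaving out either Huh7-S replicate 1 or Huh7-S replicate 2 took the lower scaRNA calls in the clone from 7 to 4. The clone calls of SCARNA9L, SCARNA21 and SCARNA10 were lost without any 1 of 5, 6 and 7 arrays, those of SCARNA1 and SCARNA23 without any 1 of 3 and that of SCARNA18 without any 1 of 4, and that of SCARNA10 also under either rescaling of the arrays.

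Of the 11 snRNA genes that are neither U6 copies nor pseudogenes, 3 were lower in Huh7-R-A7 (27.3%, against 24.6% of all genes). They were RNU11, RNU4ATAC and RNU6ATAC, whose RNAs are known as parts of the minor spliceosome, which removes a rare class of introns. No gene of its U12 RNA, or of the U1 and U2 RNAs of the major spliceosome, was among the 11. RNU11 (chr1:28648600-28648734), whose U11 RNA recognises the 5′ splice site of these introns, measured 12.21, 12.95 and 12.13 in Huh7-S, 11.67, 11.88 and 11.38 in Huh7-R, and 11.09, 11.66 and 11.28 in Huh7-R-A7. Parental arrays were all higher, by a clone difference of −1.08 ± 0.25 (adjusted p = 0.0096, 2.12-fold) and a pool difference of −0.78 ± 0.25 (adjusted p = 0.035, 1.72-fold). The pool call was lost without any 1 of 4 arrays (Huh7-S replicate 2, Huh7-R-A7 replicate 3, and replicates 1 and 3 of Huh7-R).

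RNU4ATAC (chr2:121530880-121531009) and RNU6ATAC (chr9:134164439-134164564) encode the paired U4atac and U6atac RNAs of the same spliceosome. RNU4ATAC measured 15.97, 15.8 and 15.43 in Huh7-S, 15.3, 15.67 and 15.43 in Huh7-R, and 14.85, 15.13 and 14.62 in Huh7-R-A7. The clone lay below both other groups, by −0.87 ± 0.18 against parental cells (adjusted p = 0.0059) and by −0.60 ± 0.18 against the pool (adjusted p = 0.089, and 0.05 with the replicate block, which passed). The pool overlapped the parental arrays (−0.27 ± 0.18, adjusted p = 0.25). RNU6ATAC measured 8.65, 9.2 and 8.61 in Huh7-S, 8.62, 8.61 and 8.61 in Huh7-R, and 8.45, 8.13 and 8.06 in Huh7-R-A7. It was lower in the clone by −0.61 ± 0.17 (adjusted p = 0.02), a call lost without Huh7-R-A7 replicate 2 or 3, and differed in the pool by −0.20 ± 0.17 (adjusted p = 0.34). The clone calls of RNU11 and RNU4ATAC were lost with only replicates 2 and 3 of each group. That of RNU6ATAC was lost with only the 6 arrays of the groups compared. RNU4ATAC lies within CLASP1, which was lower in the clone by −0.22 ± 0.07 (adjusted p = 0.041) and higher in the pool by 0.31 ± 0.07 (adjusted p = 0.0095).

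No measured gene of the major spliceosome's U4 or U5 snRNAs passed in any comparison. The U4 genes RNU4-1 and RNU4-2 differed from Huh7-S by −0.16 ± 0.1 and −0.07 ± 0.06 in the clone (adjusted p = 0.22 and 0.41) and by −0.06 ± 0.1 and −0.01 ± 0.06 in the pool (adjusted p = 0.62 and 0.91). The U5 genes RNU5A-1, RNU5B-1, RNU5D-1 and RNU5E-1 differed by −0.02, −0.04, −0.04 and 0.23 in the clone, with adjusted p between 0.32 and 0.93. RN7SK, the abundant regulator of P-TEFb, measured 19.81, 19.82 and 19.88 in Huh7-S, 19.91, 19.72 and 19.8 in Huh7-R, and 19.83, 19.78 and 19.92 in Huh7-R-A7. The groups overlapped, and its differences were 0.01 ± 0.06 and −0.02 ± 0.06 (adjusted p = 0.96 and 0.78). Signals this high may be near the top of the array's range, where a difference would be read as smaller, and this was not tested. Of its 4 measured pseudogenes RN7SKP1 was at least 1.11-fold higher in the clone and at least 1.1-fold in the pool (adjusted p = 0.026 and 0.028).

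The U6 copies and snRNA pseudogenes depended on 1 parental array. Over the 27 U6 copies the median deviation from each gene's mean was −0.53 in Huh7-S replicate 1, 0.58 in replicate 2 and 0.36 in replicate 3, and lay between −0.34 and 0.2 on the 6 resistant arrays. With all arrays none of the 27 passed in either line (0 also at an unadjusted p below 0.05), with medians of −0.37 in the clone and −0.13 in the pool. Without Huh7-S replicate 1, 19 were lower in the clone and 12 in the pool, with medians of −0.74 and −0.45, and none was higher. The same step raised the lower calls among the 66 snRNA pseudogenes from 7 to 27 in the clone and from 4 to 18 in the pool. In these fits 45.6% of all genes passed in the clone and 47.1% in the pool. Of those passing, 44.4% and 43.8% were higher and the rest lower. Without Huh7-S replicate 2 or 3 instead, no U6 copy passed. Genes of U6 RNA are known as near copies of each other, and probe sequences were not compared here. The 27 can therefore not be taken as 27 separate measurements. RefSeq lists the symbols of only 3 of the 28 probe sets of this family.

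**Figure D3:**
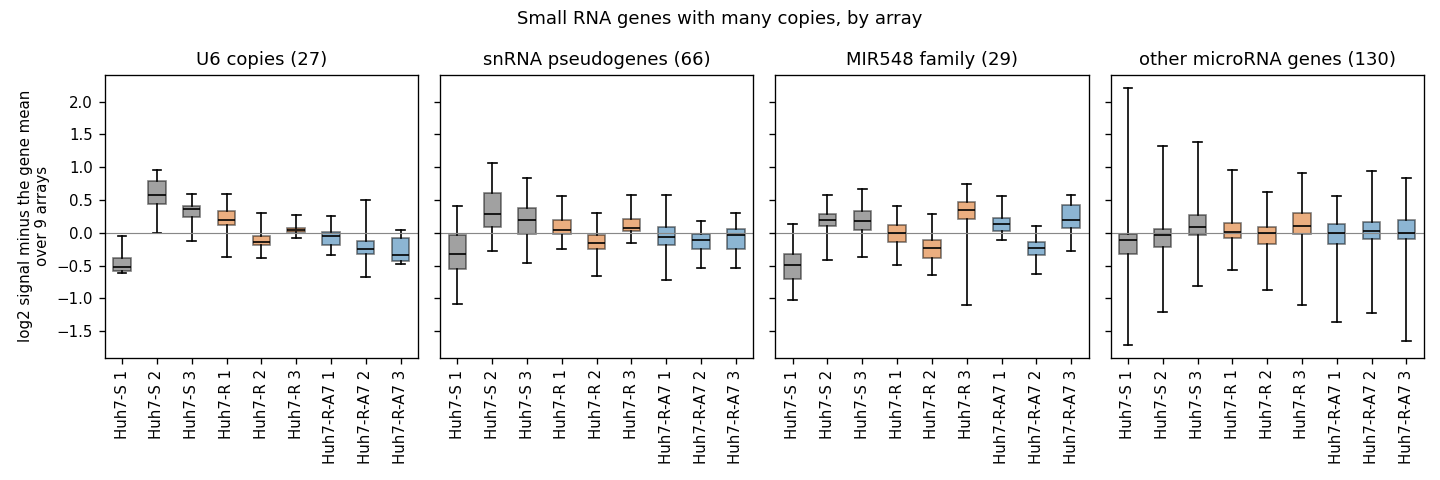
Log2 signal of each gene minus its mean over the 9 arrays (y axis) for 4 families, by array (x axis). Boxes hold the middle of the genes with the median as a line, whiskers reach the lowest and highest gene, and colours mark Huh7-S (grey), Huh7-R (orange) and Huh7-R-A7 (blue). In U6 copies, snRNA pseudogenes and the MIR548 family Huh7-S replicate 1 lies below the other parental arrays.

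Among microRNA genes that passed, MIR29A, MIR21 and MIR181B1 had the largest rises in both lines. MIR21 (chr17:59841266-59841337, plus strand, within VMP1) encodes a microRNA that is often high in tumours and represses PDCD4, a tumour suppressor. It measured 5.97, 6.38 and 6.1 in Huh7-S, 7.88, 7.52 and 7.52 in Huh7-R, and 6.91, 7.13 and 6.85 in Huh7-R-A7. The groups were fully apart, with the pool highest, at 0.82 ± 0.14 (adjusted p = 0.0024, 1.76-fold) in the clone and 1.49 ± 0.14 (adjusted p = 0.00013, 2.82-fold) in the pool. The clone was lower than the pool by −0.68 ± 0.14 (adjusted p = 0.027), a call lost without any 1 of 4 arrays. VMP1 was not analysed here. MIR590, which shares the seed of miR-21-5p, differed by 0.14 ± 0.21 and 0.33 ± 0.21 (adjusted p = 0.62 and 0.24).

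MIR29A (chr7:130876747-130876810) encodes a microRNA that represses collagen genes. It lay below the noise limit on all parental arrays, at 5.04, 4.66 and 5.11, and above it on all resistant ones, at 6.34, 6.48 and 6.77 in Huh7-R and 6.06, 6.26 and 6.06 in Huh7-R-A7. It was at least 1.09-fold higher in the clone (adjusted p = 0.00047) and at least 1.44-fold higher in the pool (adjusted p = 0.00012). MIR181B1 (chr1:198858873-198858982) measured 5.59, 6.42 and 6.49 in Huh7-S, 7.05, 7.36 and 7.53 in Huh7-R, and 7.41, 7.05 and 6.81 in Huh7-R-A7. It was higher without overlap by 0.92 ± 0.27 (adjusted p = 0.024) in the clone, a call lost without Huh7-R-A7 replicate 1 or 2, and by 1.14 ± 0.27 (adjusted p = 0.0094) in the pool. Its host transcript MIR181A1HG differed by 0.37 ± 0.2 and 0.31 ± 0.2 (adjusted p = 0.18 and 0.24). Of the genes with the same seed, MIR181D differed by 0.18 ± 0.31 and 0.21 ± 0.31 (adjusted p = 0.66 and 0.61) and MIR4262 by −0.44 ± 0.24 and −0.51 ± 0.24 (adjusted p = 0.17 and 0.12).

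Other microRNA genes were higher by less. MIR320E, in the protein kinase gene PRKD2, was higher by 0.69 ± 0.16 and 0.68 ± 0.16 (adjusted p = 0.0096 and 0.0098), and MIR320A by 0.70 ± 0.17 in the clone (adjusted p = 0.013), with 0.49 ± 0.17 in the pool (adjusted p = 0.05, which did not pass). The microRNA of MIR320A is known to be made without Drosha cleavage. MIR4285 was higher by 0.72 ± 0.16 and 0.79 ± 0.16 (adjusted p = 0.0074 and 0.0049). MIR502 was higher by 0.43 ± 0.13 and 0.56 ± 0.13 (adjusted p = 0.029 and 0.0095), the former lost without any 1 of 5 arrays, while the chloride channel gene CLCN5, in which it lies on the same strand, was lower by −1.23 ± 0.22 and −1.44 ± 0.22 (adjusted p = 0.0031 and 0.0014).

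MIR573 (chr4:24520192-24520290) had the largest log2 difference of any small RNA gene in the clone. It is part of a signature that the study drew from these arrays, so its direction is not independent evidence. It measured 8.55, 8.58 and 8.65 in Huh7-S, 7.52, 6.44 and 7.33 in Huh7-R, and 6.64, 6.04 and 5.61 in Huh7-R-A7. Parental arrays were tightly grouped above all others, and the difference was −2.50 ± 0.32 (adjusted p = 0.00058, 5.66-fold) in the clone and −1.50 ± 0.32 (adjusted p = 0.0069, 2.83-fold) in the pool. Pool and clone overlapped (−1.0 ± 0.32, adjusted p = 0.11). MIR3143 (chr6:27147626-27147688) measured 8.8, 9.16 and 9.13 in Huh7-S, 7.82, 7.6 and 7.24 in Huh7-R, and 7.92, 7.19 and 7.71 in Huh7-R-A7. It fell without overlap by −1.42 ± 0.22 (adjusted p = 0.0013) and −1.47 ± 0.22 (adjusted p = 0.0011). MIR3942 measured 6.29 to 6.68 in Huh7-S and was below the noise limit on all resistant arrays, at least 1.35-fold lower in both lines (adjusted p = 0.00046 and 0.0004).

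MIR16-2 was lower in the pool, at least 1.23-fold (adjusted p = 0.04), a call lost without any 1 of 6 arrays. It differed in the clone by −0.49 ± 0.28 (adjusted p = 0.2) and between clone and pool by 0.37 ± 0.28 (adjusted p = 0.51). It lies within the condensin gene SMC4, which was lower by −0.87 ± 0.2 and −0.76 ± 0.2 (adjusted p = 0.0089 and 0.016). Some microRNA genes differed widely without passing. MIR2054 differed by −0.91 ± 0.68 and −1.56 ± 0.68 (adjusted p = 0.32 and 0.099), and MIR1299 by 1.00 ± 0.45 and 1.09 ± 0.45 (adjusted p = 0.11 and 0.084). None of the 29 genes of the MIR548 family passed in either line (limma, and 0 at an unadjusted p below 0.05).

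**Figure D4:**
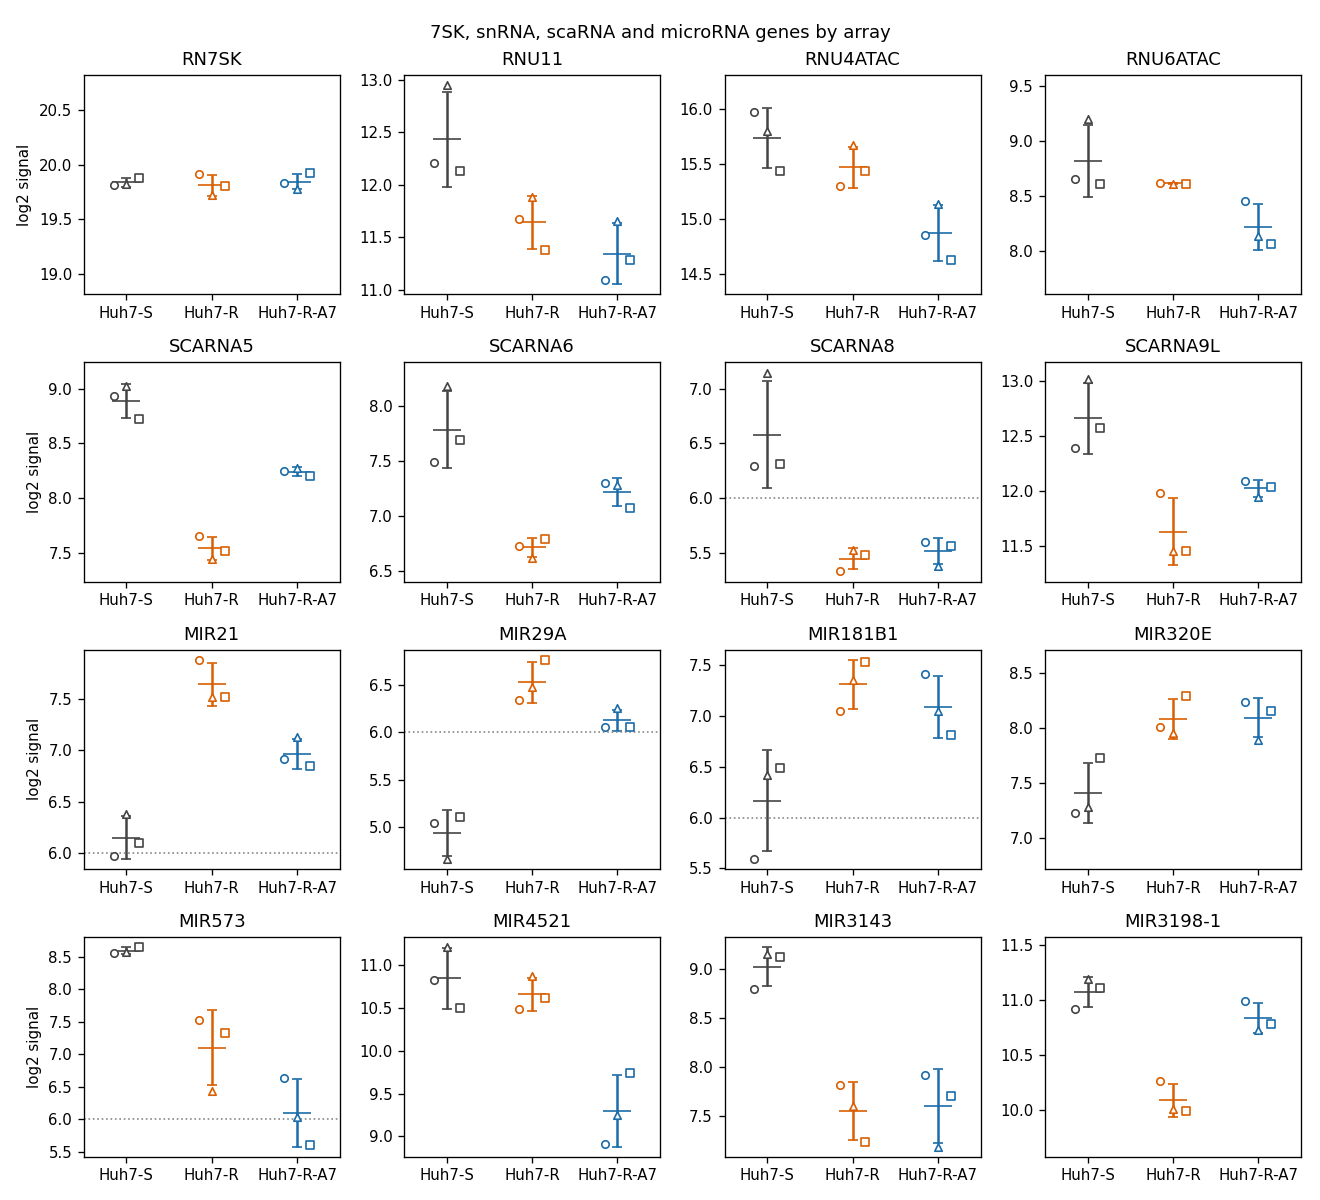
Log2 signal (y axis, a scale for each gene spanning at least 2 log2 units) of 16 genes of 7SK, snRNAs, scaRNAs and microRNAs in parental (Huh7-S), pool (Huh7-R) and clone (Huh7-R-A7) cells. Open symbols are the 3 arrays a group (circle, triangle and square for replicates 1, 2 and 3) with the mean and SD as bars, and the dotted line is the noise limit at 6. RN7SK is level, RNU11 and SCARNA5 lie lower on all resistant arrays, and MIR4521 is lower in Huh7-R-A7 only.

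In Huh7-R-A7 vs. Huh7-R, 4 small RNA genes were higher and 5 lower, or 2.24% of the 401 against 8.63% of all genes tested (4.11% higher and 4.52% lower). Same-numbered pool and clone arrays deviated together, and with the replicate number as a block 5 were higher and 10 lower, all 9 of the unblocked calls among them. These blocked calls made 3.74% of the 401, against 10.3% of all genes. The 6 added were SNORA54, SNORD14B, RNU4ATAC, MIR3671, SNORD15B and SNORD17. Without the block the lower count fell to 1 without Huh7-R replicate 3 and to 2 without replicate 2 of the pool or replicate 1 or 3 of the clone, and the higher count to 2 without Huh7-R-A7 replicate 1 or 2. MIR4521 (chr17:8186945-8187004) had the largest difference. It measured 10.83, 11.21 and 10.5 in Huh7-S, 10.49, 10.87 and 10.61 in Huh7-R, and 8.91, 9.25 and 9.74 in Huh7-R-A7. The clone lay below both other groups, which overlapped, by −1.36 ± 0.24 against the pool (adjusted p = 0.015, 2.57-fold) and −1.55 ± 0.24 against parental cells (adjusted p = 0.0015, 2.93-fold). The difference from the pool no longer passed without replicate 2 of either line or without replicate 3 of the pool.

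Other genes lower in the clone than in the pool were snoRNA genes and MIR21. SNORA3B (chr11:8685439-8685569, within the ribosomal protein gene RPL27A) measured 9.43, 9.38 and 9.12 in Huh7-S, 9.9, 9.88 and 9.57 in Huh7-R, and 9.12, 9.08 and 9.05 in Huh7-R-A7. Here the pool lay above both other groups, by 0.48 ± 0.11 over parental cells (adjusted p = 0.0097), and the clone was lower than the pool by −0.71 ± 0.11 (adjusted p = 0.0085). SNORA23, within the nuclear import gene IPO7, was lower in the clone by −0.84 ± 0.2 (adjusted p = 0.041), and IPO7 differed by −0.37 ± 0.13 (adjusted p = 0.15). SNORD121A (within UBAP2) was below the noise limit on all clone arrays and at least 1.09-fold lower than in the pool (adjusted p = 0.041). The calls of SNORA23 and SNORD121A between clone and pool were each lost without any 1 of 6 arrays. Against parental cells SNORD121A differed in the clone by −1.07. That call held in every fit that left out 1 array (limma, adjusted p between 0.0047 and 0.017).

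SCARNA5, MIR3198-1, SNORA28 and SNORD119 were higher in the clone than in the pool, and in all 4 the clone lay nearer to the parental cells. MIR3198-1 (chr22:17764180-17764259) measured 10.92, 11.19 and 11.11 in Huh7-S, 10.26, 10.01 and 9.99 in Huh7-R, and 10.99, 10.73 and 10.78 in Huh7-R-A7. The pool lay below both others, by −0.99 ± 0.11 against parental cells (adjusted p = 0.0003), and the clone was 0.75 ± 0.11 above the pool (adjusted p = 0.0069). It lies on the same strand within BID, a pro-apoptotic gene that was higher in both lines (0.53 ± 0.14 and 0.65 ± 0.14, adjusted p = 0.016 and 0.0062). SNORA28, within the translation initiation factor gene EIF5, was at least 1.78-fold lower in the pool than in parental cells (adjusted p = 0.00089) and at least 1.46-fold higher in the clone than in the pool (adjusted p = 0.023). EIF5 was lower in the pool by −0.91 ± 0.11 (adjusted p = 0.00035) and higher in the clone than in the pool by 0.60 ± 0.11 (adjusted p = 0.013). SNORD119 was lower in the pool by −0.71 ± 0.14 (adjusted p = 0.0048) and 0.67 ± 0.14 higher in the clone than in the pool (adjusted p = 0.028), and its host SNRPB, a core spliceosome protein gene, differed by −0.76 ± 0.12 (adjusted p = 0.0018) and 0.42 ± 0.12 (adjusted p = 0.087). The calls between clone and pool for SNORA28 and SNORD119 were lost without any 1 of 4 and any 1 of 5 arrays.

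Some snoRNA genes passed against parental cells in the pool and not in the clone. SNORD14A and SNORD14B, 2 copies of the U14 RNA that is needed to process 18S ribosomal RNA, lie within RPS13 and were each higher by 0.82 (adjusted p = 0.019 and 0.026). SNORA52 (within RPLP2) and SNORA20 (within TCP1) were higher by 0.75 and 0.84 (adjusted p = 0.016 and 0.031). In the clone these 4 differed from parental cells by 0.12 to 0.51, with adjusted p between 0.15 and 0.65, and from the pool by −0.63 to −0.33, with adjusted p between 0.097 and 0.51 (SNORD14B passed with the replicate block, adjusted p = 0.038). Leaving out Huh7-R replicate 2 ended all 4 of these pool calls.

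The snoRNA and scaRNA genes were set against the measured genes whose RefSeq span holds them, 78 pairs over 62 spanning genes. Their strand is not in the tables used here, so a span is not proof of a host. Across pairs the log2 differences of member and spanning gene correlated at r = 0.38 (rho = 0.49) in Huh7-R-A7 vs. Huh7-S, r = 0.62 (rho = 0.64) in Huh7-R vs. Huh7-S and r = 0.57 (rho = 0.67) in Huh7-R-A7 vs. Huh7-R. These describe genes on the same arrays, several of which share a spanning gene, and carry no p. Member and spanning gene both passed in 11, 13 and 2 pairs, with the same sign in 10, 13 and 2. The signs were the same in 53, 53 and 57 of the 78 pairs. SNORA49 and EP400 made the 1 opposite pair. For the 30 microRNA genes with a measured gene around them on the same strand, r was 0.33, 0.26 and 0.06.

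**Figure D5:**
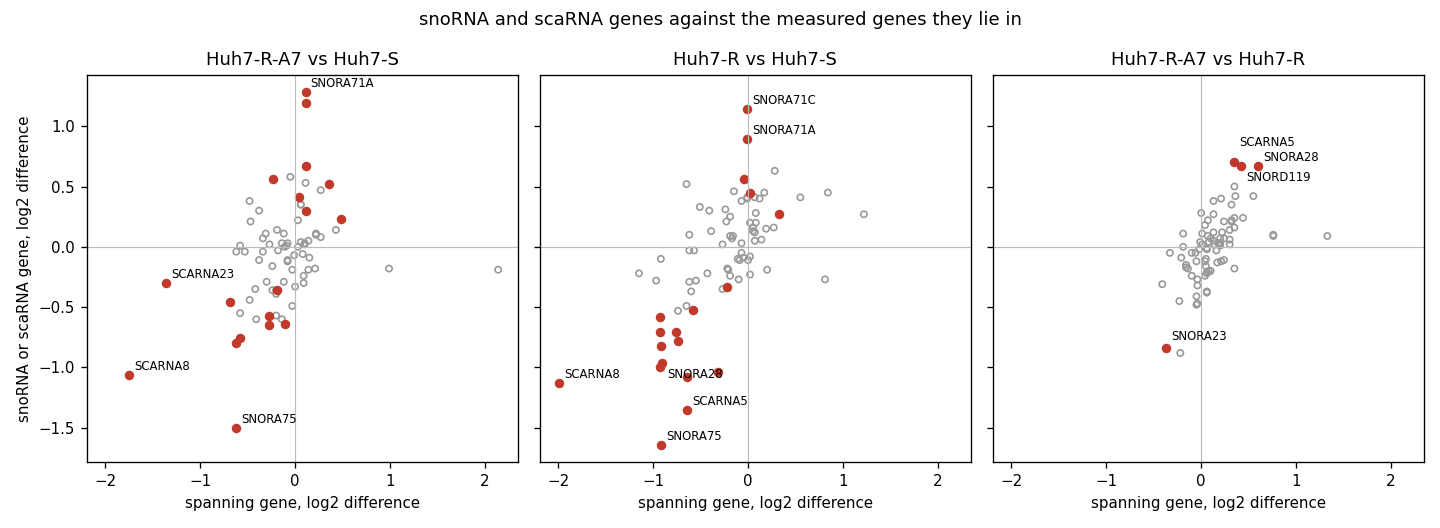
Log2 difference of each snoRNA or scaRNA gene (y axis) against that of the measured gene it lies in (x axis), 78 pairs in each of the 3 comparisons. Red points are small RNA genes that passed an adjusted p below 0.05, open points are the rest. SNORA75, SCARNA8 and SCARNA5 fall with their spanning genes, while SNORA71A and SNORA71C lie high above a spanning gene near 0.

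The proteins that make or carry these RNAs were counted over lists, beside 18.0% higher and 24.6% lower of all genes in the clone and 19.0% and 26.2% in the pool. Of 5 measured snoRNP core genes, 0 were higher and 1 (NOP58) lower in the clone, and 2 were lower in the pool (NOP58 and NOP10, the latter by −0.40, adjusted p = 0.03). Of 9 assembly genes, 1 was higher and 2 lower in the clone: the ATPase gene RUVBL2 (0.64, adjusted p = 0.0067), its partner RUVBL1 (−0.78, adjusted p = 0.003) and NUFIP1 (−0.70, adjusted p = 0.0091). Of 10 genes of Cajal bodies and snRNP maturation, 4 were lower in the clone and 5 in the pool, among them GEMIN4 of the SMN complex (−0.57 and −0.52, adjusted p = 0.021 and 0.029), and none was higher. Of 18 genes of snRNA transcription and 3′ end formation, 4 were lower in the clone and 7 in the pool. SNAPC3, a subunit of the snRNA promoter factor SNAPc, led them at −1.06 and −1.02 (adjusted p = 1.6e-05 and 1.9e-05). Of 24 Sm and snRNP protein genes, 2 were higher and 6 lower in the clone, and 1 was higher and 14 lower in the pool, where PRPF4 (−1.43, adjusted p = 4.7e-05) and LSM6 (−1.32, adjusted p = 0.00069) of the U4/U6 particle fell most. Of 5 7SK particle genes, LARP7, which binds 7SK, was higher in the clone (0.26, adjusted p = 0.049) and CCNT2 lower (−0.51, adjusted p = 0.00063). Of 7 measured microRNA processing genes, 2 were lower in each line, RAN among them (−0.37 and −0.46, adjusted p = 0.0027 and 0.00087), and PRKRA was lower in the clone (−0.25, adjusted p = 0.044) and higher in the pool (0.39, adjusted p = 0.0062). The export factor gene XPO5 was lower in the pool (−0.60, adjusted p = 0.0052). Of 13 measured snoRNA host genes on the list, 2 were lower in the clone (NCL and RPL12) and 3 in the pool (also DANCR), and none was higher.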

How the data were processed

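Total RNA of 9 samples was hybridised to Affymetrix Human Transcriptome Arrays, 1 array each. The authors normalized the arrays by RMA in Affymetrix Expression Console and deposited log2 signal values in a table from which the low-signal filter of their methods removed 0 further genes. No program version is given in the sources used here, and no genome build. Symbols came from the platform annotation, 50 of them updated, and probe sets of 1 gene were averaged. Each comparison was fitted with limma 3.58.1 in R 4.3.3 (lmFit, eBayes with trend; 1 term for the group over the 9 arrays, which leaves 6 residual degrees of freedom), with Benjamini-Hochberg over 9784 genes. The fits were also run on simulated data with independent noise on each array. These lacked the shared deviations between arrays and the equal values of the real data, so they could not test the effect of either. Alternatives changed the scaling, array weights, samples, filters, thresholds and replicate block, and left out each array in turn. Python 3.11.15 and pandas 2.3.3 made the tables. The number of arrays limits the precision.

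Replicate numbers are shared by the groups. Between pool and clone, deviations of arrays with the same number correlated at 0.6, 0.49 and 0.42 over all genes. The main fits do not use this pairing, and the replicate block was run as an alternative. Correlations of Huh7-S with either line lay between −0.21 and 0.1. Over the small RNA genes alone, replicate 3 of Huh7-S correlated at 0.28 with that of the clone and 0.44 with that of the pool, and replicates 1 and 2 between −0.17 and −0.06.

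The members and lists were chosen with earlier results of these data known. The naming rule covered up to 5 largest rises and falls per class and comparison, the snRNA and 7SK genes, the genes around them and up to 4 genes of each list. Some of these are not described above. Among them are MIR4659A (−1.04 in the clone against Huh7-S, limma, adjusted p = 0.0078) and the snRNA pseudogenes that passed. MIR573, named by the rule, belongs to a signature that the study drew from these arrays. The genes around snoRNAs, of unknown strand, and large differences that did not pass were named after their values were seen. So was the rule that gives folds as bounds.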

Additional observations from a re-analysis of the deposited data

Results flagged for a closer look

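The effect against Huh7-S differed between clone and pool for the 9 small RNA genes that passed in Huh7-R-A7 vs. Huh7-R. That comparison is the direct test of the difference (limma without the replicate block, n = 3 arrays a group). Lower in the clone were MIR4521 (−1.36, adjusted p = 0.015), SNORD121A (−0.90, adjusted p = 0.041), SNORA23 (−0.84, adjusted p = 0.041), SNORA3B (−0.71, adjusted p = 0.0085) and MIR21 (−0.68, adjusted p = 0.027). Higher in the clone were SNORD119 (0.67, adjusted p = 0.028), SNORA28 (0.67, adjusted p = 0.023), SCARNA5 (0.70, adjusted p = 0.0038) and MIR3198-1 (0.75, adjusted p = 0.0069). Calls of 3 of the 9, SCARNA5, SNORA3B and MIR3198-1, held in every fit that left out 1 array and under every other fitted setting.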

How the results depend on the processing

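No called gene reversed its direction under any setting run. The counts of small RNA genes higher and lower in Huh7-R-A7 vs. Huh7-S (31 and 32), Huh7-R vs. Huh7-S (31 and 26) and Huh7-R-A7 vs. Huh7-R (4 and 5) stayed within 1.5 times under both rescalings, without the intensity trend, with probe sets not averaged, with only genes of a mean of at least 6, with only genes of 9 different values and without genes whose probe set lies on another chromosome. Leaving out 1 array gave 22 to 31 higher and 23 to 71 lower in the clone, 22 to 38 and 15 to 53 in the pool, and 2 to 6 and 1 to 6 between the lines. Array weights gave 99 lower in the clone, 71 lower in the pool, and 11 higher and 15 lower between the lines. Calls in either direction were then 33.9%, 26.7% and 6.48% of the small RNA genes. Of all genes they were 56.4%, 57.9% and 25.3%, so calls rose there too. Replicates 2 and 3 alone, an alternative chosen after seeing the data like that on chromosomes, gave 20 higher and 64 lower in the clone and 46 lower in the pool. With only the 6 arrays of the groups compared, 7 were higher in the clone than in the pool. That fit called 3.49% of the small RNA genes between the lines, against 11.8% of all genes. At an adjusted p below 0.01 the counts were 14 and 12, 12 and 14, and 2 and 1. With a fold of at least 2 they were 7 and 9, 7 and 9, and 0 and 1, and with the p and fold limits of the study's methods 0 and 1, 1 and 0, and 0 and 0. Of all 9784 genes, 1059, 1085 and 105 passed with a fold of at least 2. Counts of all genes at the other 2 limits are not given here. The replicate block raised the count lower in the clone than in the pool from 5 to 10 and kept the other counts within 1.5 times, though the pairing held only for those 2 lines. The cause of these shifts was not tested. Calls held in every fit without 1 array for 36 of 63 genes in the clone, 30 of 57 in the pool and 3 of 9 between the lines. Of the 401 genes, 29.9% hold equal values on several arrays, and a fold of a gene below the noise limit in a group is only a bound.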
